A study of Mus musculus with 8 samples.

Results

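The genes described here are the mouse genes named Zfp followed by a number, the largest block of zinc finger genes in the mouse naming system, as expressed in 4 kinds of pluripotent stem cell culture. A symbol of that form (Zfp42, a pluripotency marker, left out) was kept where its FPKM (fragments per kilobase of transcript, scaled to the mapped fragments of the library) reached 2 in at least 2 of the 8 libraries. That rule kept 283 of the 359 Zfp symbols in the tables and left 76 below it. The members were thus chosen by their FPKM in these same libraries, so the levels are given as a description. Just inside the threshold, by the second highest library, were Zfp114 at 2.0, Zfp69 at 2.10 and Zfp235 at 2.15 FPKM, and just outside it were Zfp182 at 1.99, Zfp810 at 1.95 and Zfp551 at 1.95 FPKM. Of the 283 members, 210 stood at 2 FPKM or more in all 8 libraries, and 7 met the rule through 1 group only (Zfp27, Zfp449, Zfp629 and Zfp677 through CDGC1, Zfp493 through CDGC6, Zfp438 and Zfp583 through Dnd1-KD), so that a difference of those 7 was partly fixed by the choice.

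The 8 libraries are RNA-seq of total RNA, 2 for each group, all grown in DMEM with serum and LIF. CDGC1 and CDGC6 are 2 independent pluripotent stem cell lines that were each started from early teratoma cells in a testis of new-born mice. Their strain is 129Sv/Dnd1ter/ter/Oct4deltaPE-GFP, their genotype Dnd1ter/ter, and they were used at passages 15 to 18. The product of Dnd1 binds RNA in germ cells, ter is an inactivating mutation of the gene, and the GFP reports an Oct4 gene regulatory region without its proximal enhancer. The control is the embryonic stem cell line E14tg2a (129/Ola, wild type, passages 10 to 12). Dnd1-KD cells are embryonic stem cells of the same strain, genotype and passages, labelled as Dnd1 knock-down. Each CDGC group is 1 line, and how Dnd1 was knocked down is not given in the sources used here.

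Zinc finger proteins of the C2H2 type read DNA with arrays of fingers, each holding a zinc ion between a pair of cysteines and a pair of histidines. Many of them also carry a KRAB box, which binds TRIM28 (KAP1); TRIM28 in turn brings SETDB1, HP1 proteins and DNA methyltransferases to the bound site. In embryonic stem cells this machinery silences endogenous retroviruses and protects the methylation of imprinted genes during early development. KRAB genes lie in clusters that grew by local duplication, and neighbours in a cluster are often close copies of each other. The Zfp name was given by sequence alone, so the set also holds transcription factors without a KRAB box, RNA-binding proteins and ribosome factors.

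A match of the reference proteins to a KRAB A box model and to the C2H2 pattern was available for 280 members. It found a KRAB A box in 161 and none in 119. The median number of fingers was 10, with 12 in the KRAB genes and 7 in the others, and the longest array had 36. In 8 members no finger matched the pattern, Zfp36 (a CCCH-type protein), Zfp365 and Zfp703 among them. The members lay on 20 chromosomes, with 69 on chromosome 7, 40 on chromosome 17 and 25 on chromosome 13.

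The tables join neighbouring symbols into 1 entry in some libraries and not in others, so symbols that any table joined were summed and treated as 1 unit. The 283 members made 257 units, of which 217 held a single symbol, while 40 joint units held the other 66 members, 24 of them together with symbols that are not members. All 257 units were among the 11874 units tested. Differences are on the scale log2(FPKM + 1), which understates the change of genes at low level. A unit is said to be called, to rise or to fall where limma's test over all 11874 units gave a Benjamini-Hochberg adjusted p under 0.05. With 2 libraries in each group, and nothing in the labels to say that both came from separate cultures, these p-values measure the spread between libraries, which may be technical.

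Read depth is unknown because the tables hold FPKM only. Entries with no gene name held 76.8% to 85.6% of each library's FPKM sum. The SD of the log2 ratio between both libraries of a group was 0.35 in control, 0.40 in Dnd1-KD, 0.43 in CDGC6 and 0.44 in CDGC1. The targeted gene could not be checked: Dnd1 was measured only in an entry joined with Hars, at 65.4 ± 0.525 FPKM (SD, n = 2) in control and 55.7 ± 2.65 in Dnd1-KD (limma adjusted p = 0.0729). Pluripotency markers were expressed in every library, with a summed level of 809 to 960 FPKM in Dnd1-KD and 1475 to 2041 in the other 6 libraries. All 6 of these markers fell in Dnd1-KD, beside 15.5% of all units tested. Fibroblast markers, which feeder cells would bring, summed to 33.6 to 35.1 FPKM in CDGC1, 10.0 to 10.3 in Dnd1-KD, 24.7 to 32.3 in CDGC6 and 7.0 to 7.66 in control. Of those 8 markers, 2 stood at 1 FPKM or more in a control library, 3 in Dnd1-KD, 5 in CDGC6 and 5 or 6 in CDGC1, with Lum listed at 0 in CDGC6 and Dnd1-KD. The part of either marker list in the results was not tested, and in bulk RNA fewer cells of a type and less RNA per cell cannot be told apart.

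Most members were expressed at a low level. The median member unit stood at 5.37 and 5.63 FPKM in CDGC1, 6.28 and 6.22 in control, 6.63 and 5.92 in CDGC6 and 7.39 and 7.57 FPKM in Dnd1-KD, beside a median of 9.75 to 11 FPKM over all units tested. KRAB units were lower (median of their mean levels 5.10 FPKM) than units without the box (9.91 FPKM). Among single-symbol units Zfp207, a spindle and splicing factor also called BuGZ, had the highest mean, 128 FPKM with a range of 103 to 143 over the 8 libraries. Zfp57, the KRAB protein that holds methylation at imprinted loci, came next with a mean of 74.3 FPKM and the far wider range of 13.8 to 130. Zfp106, an RNA-binding protein, had a mean of 70.6 FPKM and was the flattest member of all, from 62.8 to 74.6 FPKM, a ratio of 1.19 between its highest and lowest library. Zfp330 (53.1 FPKM), Zfp568 (43.5) and Zfp219 (40.7) followed.

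Dnd1-KD against control asks what changed in E14tg2a cells in which Dnd1 was targeted. More members rose than fell. Of the 257 units 69 rose and 11 fell, so 31.1% were called in either direction, beside 36.2% of all units tested. Rises made 26.8% of the members against 20.7% of all units, and falls 4.28% against 15.5%. The median difference was 0.16 for the members and 0.02 for all units, and 179 of the 257 were above 0. The changes were small: 3 members rose at least 2-fold (3.07% of all units did) and 0 fell by that much (1.57%). The balance depends on scaling, since rises made 86.3% of the members' calls as deposited, 78.1% after median-ratio scaling (57 up, 16 down) and 72.3% after quantile normalization (47 up, 18 down). It also rests on single libraries: without control replicate 1 the calls fell to 9 up and 2 down, without control replicate 2 to 13 and 3, without Dnd1-KD replicate 1 to 40 and 10, and without Dnd1-KD replicate 2 to 19 and 2.

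The largest rise in Dnd1-KD was that of Zfp703, a corepressor of the NET family without a C2H2 array (chr8:26977336-26981462, plus strand). It stood at 1.74 and 2.14 FPKM in control and 6.42 and 6.48 in Dnd1-KD, with 4.44 and 5.57 in CDGC1 and 1.39 and 1.54 in CDGC6. Dnd1-KD and CDGC1 were thus both above the other 4 libraries, with no overlap. The difference from control was 1.35 (SE 0.13, limma adjusted p = 0.0016) in Dnd1-KD and 1.03 (SE 0.13, adjusted p = 0.001) in CDGC1. The KRAB gene Zfp655 (chr5:145231715-145247306, plus strand) stood at 16.9 and 17.0 FPKM in control and 38.3 and 43.3 in Dnd1-KD, against 11.6 and 8.23 in CDGC1 and 14.8 and 12.5 in CDGC6. It was highest in Dnd1-KD, by 1.21 (SE 0.16, limma adjusted p = 0.0038), and fell in CDGC1 by 0.74 (adjusted p = 0.01; 0.051 without control replicate 2). Zfp800 rose by 0.88 from 3.11 and 3.03 to 5.54 and 7.57 FPKM, Zfp408 by 0.85 from 5.80 and 5.98 to 13.7 and 9.56, and Zfp362 by 0.84 from 1.39 and 1.72 to 3.57 and 3.57. Zfp651 was listed at 0 in 1 control library and at 1.32 FPKM in the other, so its call in Dnd1-KD (2.48 and 2.80 FPKM) is set apart from these.

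The falls in Dnd1-KD were led by joint units. The unit of EU599041 and Zfp936 fell by 0.84, and the unit of Zfp429, Zfp456 and Zfp459 by 0.71, from 13.5 and 12.1 to 7.37 and 7.47 FPKM. Zfp296, a zinc finger factor of embryonic stem cells, fell by 0.56 (limma adjusted p = 0.036) from 23.7 and 24.1 to 17.1 and 14.7 FPKM, a call lost without any 1 of the 4 control and Dnd1-KD libraries. Zfp934 fell by 0.49 and Zfp239 by 0.46.

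**Figure D1:**
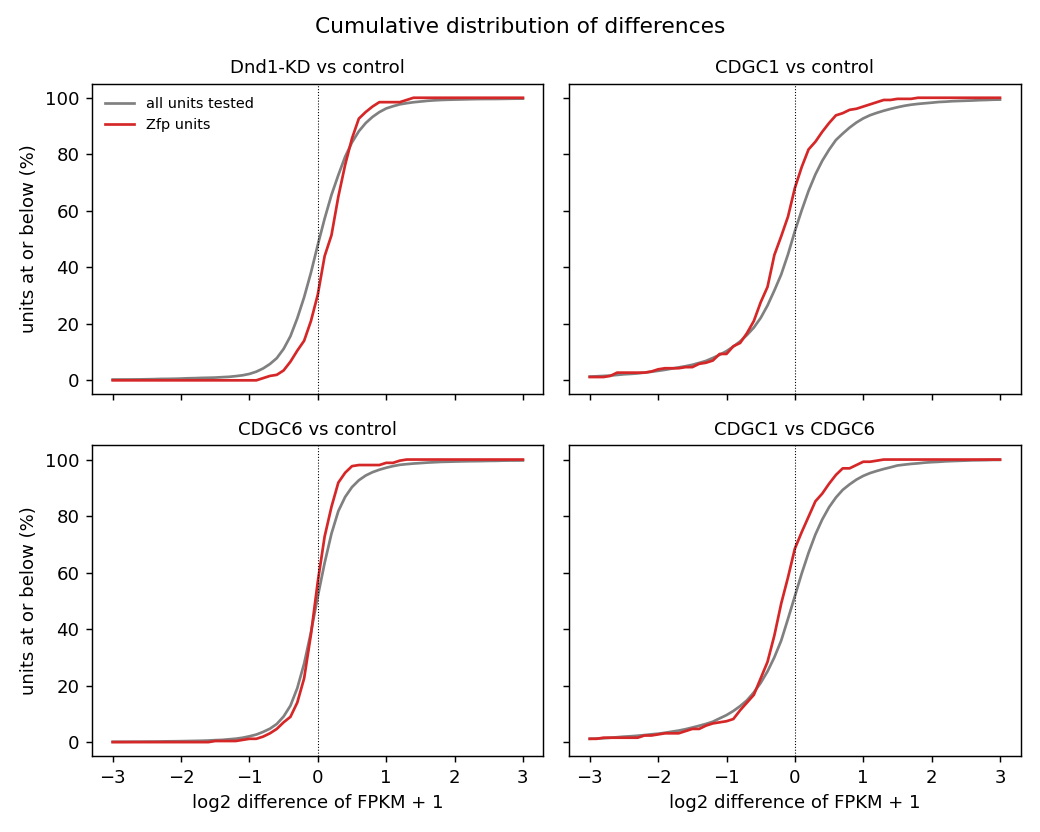
Cumulative share of units (y axis, percent) at or below each log2 difference of FPKM + 1 (x axis) for the 257 Zfp units (red) and all 11874 units tested (grey), 1 panel for each comparison. The red curve lies to the right of the grey one around 0 in Dnd1-KD (medians 0.16 and 0.02) and to the left in CDGC1 against control (medians -0.22 and -0.03).

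CDGC1 against control compares a pluripotent line from a newborn testis of a Dnd1 mutant with a blastocyst-derived line of another 129 substrain. Here the members fell more often than they rose. Of the 257 units 38 rose and 92 fell, 50.6% in either direction beside 50.5% of all units tested. The share called was therefore that of the background. The direction was uneven: 35.8% of the members fell against 27.0% of all units, and 14.8% rose against 23.5%. The median difference was -0.22 for the members and -0.03 for all units. At least 2-fold falls were seen in 22 members (9.58% of all units) and at least 2-fold rises in 8 (6.65%). Zfp629, among those 8, is a member through CDGC1 alone. Without control replicate 1 there were 20 rises and 58 falls, and without control replicate 2 there were 19 and 64. Strain, genotype, origin and passage all differ between CDGC1 and control and cannot be told apart.

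Among the single-symbol units the deepest falls in CDGC1 were those of Zfp488, Zfp36, Zfp57 and Zfp296. Zfp488 (chr14:33967070-33978764, minus strand), a factor known from oligodendrocytes, stood at 33.9 and 32.4 FPKM in control, 37.2 and 40.1 in Dnd1-KD, 19.7 and 27.4 in CDGC6 and 3.44 and 4.94 in CDGC1. Its difference from control was -2.73 (SE 0.19, limma adjusted p = 0.00011) in CDGC1 and -0.49 (adjusted p = 0.12) in CDGC6. Zfp36, the mRNA decay factor tristetraprolin (chr7:28376784-28379228, minus strand), stood at 12.3 and 12.3 FPKM in control, 15.1 and 15.5 in Dnd1-KD, 18.4 and 9.97 in CDGC6 and only 1.01 and 1.18 in CDGC1. That is a fall by 2.67 (SE 0.25, limma adjusted p = 0.00033), while CDGC6 spread on both sides of control. In both genes the CDGC1 libraries lay below all 6 others.

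The rises in CDGC1 were smaller. Zfp608 on chromosome 18, a large nuclear protein with a single finger and a close relative of Zfp609, stood at 2.07 and 2.17 FPKM in control, 2.58 and 2.90 in Dnd1-KD, 6.63 and 6.11 in CDGC6 and 8.50 and 10.4 in CDGC1. It rose in both testis-derived lines, by 1.74 (SE 0.12, limma adjusted p = 9.7e-05) in CDGC1 and by 1.24 (adjusted p = 0.0024) in CDGC6. The KRAB gene Zfp946 (chr17:22424268-22456689, plus strand) followed the same order, with 3.82 and 3.81 FPKM in control, 5.22 and 5.83 in Dnd1-KD, 11 and 9.10 in CDGC6 and 11.5 and 13.3 in CDGC1. Its differences were 1.47 (SE 0.12, limma adjusted p = 0.00021) and 1.2 (adjusted p = 0.003), and CDGC1 and CDGC6 did not differ beyond their spread (0.28, adjusted p = 0.11). Both lines share the control libraries in these comparisons. Zfp362 rose by 1.24 to 4.25 and 5.90 FPKM and Zfp629 by 1.22 to 3.19 and 3.93 FPKM in CDGC1, Zfp629 being a member through CDGC1 alone. Zfp422 rose by 1.07 from 5.11 and 4.88 to 11.9 and 11.3 FPKM.

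**Figure D2:**
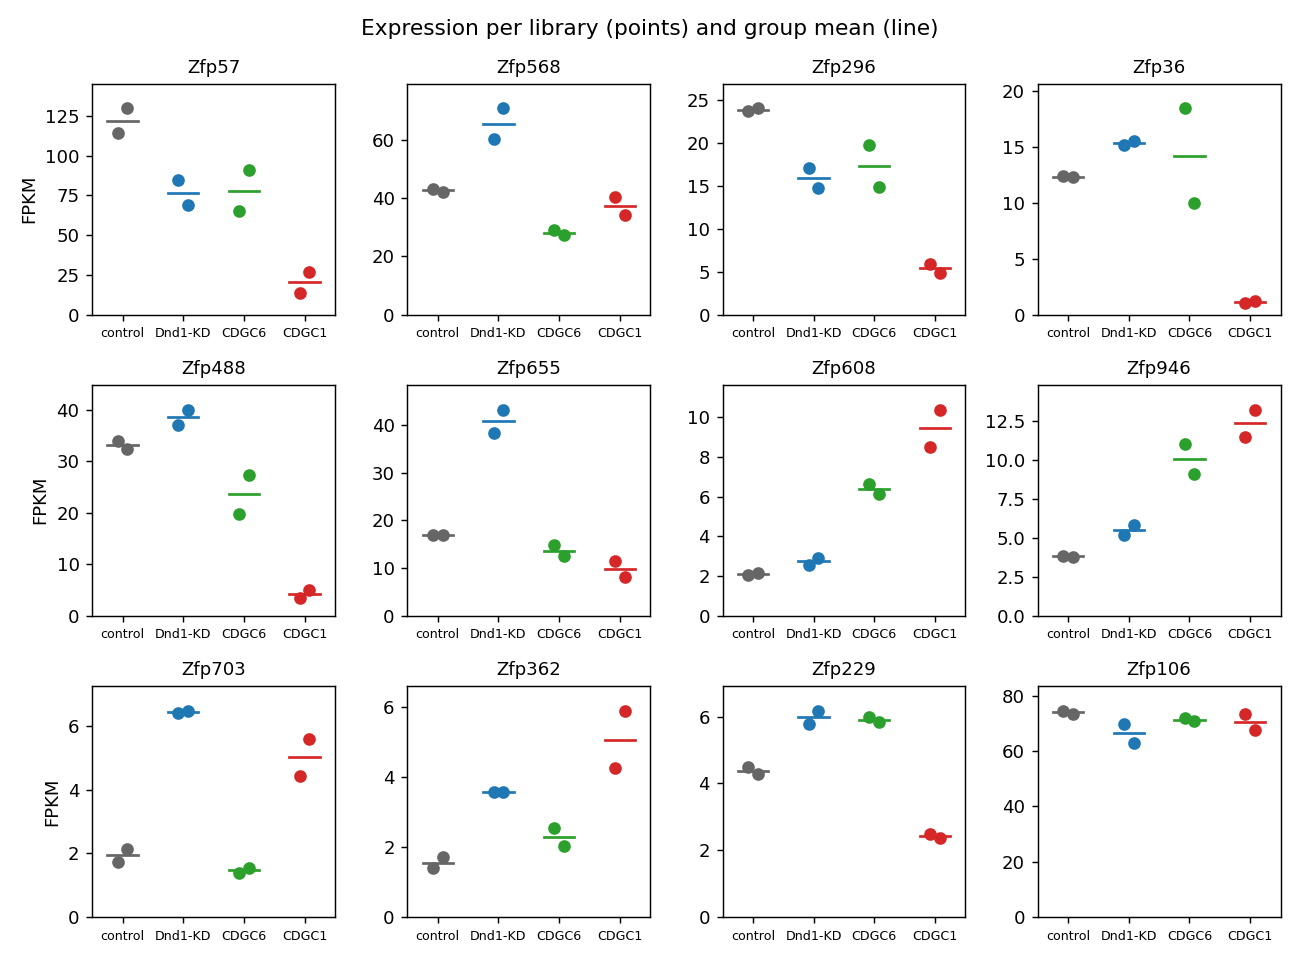
FPKM in each of the 8 libraries (points) with the group mean (line) for 12 single-symbol members, each panel with its own linear y axis from 0 and the 4 groups on the x axis. CDGC1 lies lowest for Zfp57, Zfp296, Zfp36 and Zfp488, both CDGC lines lie above control for Zfp608 and Zfp946, Dnd1-KD lies highest for Zfp655, and Zfp106 is flat.

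CDGC6 against control, the same comparison for the other testis-derived line, gave few calls. Of the 257 units 7 rose (8.46% of all units tested did) and 13 fell (10.2%), 7.78% in all, beside 18.7% of all units. The members' median was -0.05. At least 2-fold rises were those of Zfp608 and Zfp946, and the 1 fall of that size was that of Zfp365 (1.92% of all units rose and 1.41% fell by that much). Zfp365, a centrosomal protein on chromosome 10, stood at 17.8 and 18.2 FPKM in control, 19.5 and 18.6 in Dnd1-KD, 12.7 and 10.3 in CDGC1 and 5.32 and 5.97 in CDGC6. It was lower in CDGC6 (-1.52, SE 0.11, limma adjusted p = 0.0012) than in CDGC1 (-0.61, adjusted p = 0.0052). Zfp423, a transcription factor of fat precursors and the cerebellum, fell by 0.85 to 5.42 and 6.97 FPKM, from 12.0 and 11.8 in control. Zfp131 fell by 0.67 to 12.5 and 12.9 FPKM from 20.9 and 20.6. Zfp422, Zfp39 and Zfp639 rose by 0.44, 0.41 and 0.38. The balance turned on 1 library: without CDGC6 replicate 2 there were 8 rises and 4 falls, with a median of 0.02, and without CDGC6 replicate 1 there were 3 and 6. Without control replicate 1 only 4 units were called in CDGC6, without control replicate 2 only 8 and without either Dnd1-KD library 10.

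CDGC1 against CDGC6 compares 2 lines of the same strain, genotype and culture, each of them a single derived line. Of the 257 units 32 were higher and 72 lower in CDGC1, 40.5% in all, beside 47.1% of all units. Lower calls made 28% of the members against 24.1% of all units. At least 2-fold, 2 were higher (5.24% of all units) and 18 lower (8.71%). Zfp629, among the 2 higher units, is a member through CDGC1 alone. Differences of members that met the rule through CDGC1 or CDGC6 alone were partly fixed by the choice. The median was -0.18. Calls shared by both testis-derived lines were not counted over all units, so the next counts have no background beside them. Both lines moved in the same called direction from control in 14 units (6 up, 8 down), a count that rests on shared controls. In 1 unit the calls had opposite directions. That unit was the KRAB gene Zfp229 (chr17:21733724-21748969, plus strand), at 4.48 and 4.29 FPKM in control, 5.79 and 6.18 in Dnd1-KD, 5.98 and 5.83 in CDGC6 and 2.49 and 2.36 in CDGC1. The largest differences towards CDGC1 were those of Zfp703 (1.28), Zfp629 (1.13), Zfp867 (0.94), Zfp365 (0.91) and Zfp334 (0.90).

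Of the 8 members known for silencing imprints, retroviruses or retroelements, 3 rose in Dnd1-KD (20.7% of all units did), and 5 fell and 0 rose in CDGC1 (27.0% and 23.5% of all units). Zfp57 (chr17:37001163-37010729, plus strand) stood at 114 and 130 FPKM in control, 84.7 and 68.8 in Dnd1-KD, 65.3 and 90.9 in CDGC6 and 13.8 and 26.7 in CDGC1. The CDGC1 libraries lay below all others, by 2.60 (SE 0.31, limma adjusted p = 0.00092) against control and 1.95 (adjusted p = 0.0033) against CDGC6. Dnd1-KD and CDGC6 were also below both control libraries but were not called (-0.67, adjusted p = 0.14, and -0.65, adjusted p = 0.19). Zfp445, which protects imprints beside Zfp57, rose in Dnd1-KD by 0.32 (20.8 and 19.9 to 25.2 and 26.0 FPKM) and was level in CDGC1 (20.8 and 22.4 FPKM; 0.08, adjusted p = 0.48). Zfp568 on chromosome 7, a repressor of the placental Igf2 promoter, stood at 43.4 and 42.1 FPKM in control, 60.4 and 70.9 in Dnd1-KD, 40.6 and 34.2 in CDGC1 and 28.9 and 27.2 in CDGC6. It rose by 0.60 (limma adjusted p = 0.01) in Dnd1-KD and fell by 0.59 (adjusted p = 0.019) in CDGC6. Both calls were lost without either control library, the rise also without Dnd1-KD replicate 2 and the fall also without either CDGC6 library.

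Zfp809, which recognises the primer binding site of a retrovirus, was not called anywhere (20.1 and 12.5 FPKM in control, 12.3 and 8.12 in CDGC1). Zfp638, a silencer of unintegrated retroviral DNA without a KRAB box, fell in CDGC1 by 0.38. The other 3 were measured in joint units: that of Gm15446 and Zfp932 fell in CDGC1 by 0.68, that of Zfp719 and Zfp819 by 1.19, and that of Rslcan18 and Zfp708 by 0.44, while the last rose by 0.67 in Dnd1-KD.

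Of the 10 regulators known from embryonic stem cells 9 met the expression rule (Zfp521 did not). In CDGC1 4 of them fell and 0 rose (27.0% and 23.5% of all units). In Dnd1-KD 2 fell and 0 rose, beside falls of 15.5% of all units and rises of 20.7%. Zfp296 (chr7:19577287-19580656, plus strand) fell furthest, with 5.94 and 4.85 FPKM in CDGC1 against 19.8 and 14.9 in CDGC6 and 23.7 and 24.1 in control, a difference from control of -1.97 (SE 0.16, limma adjusted p = 0.00019). Zfp462, a heterochromatin factor, fell by 0.77 (18.9 and 17.5 to 10.6 and 9.91 FPKM), Zfp219, found with the core pluripotency factors, by 0.61, and Zfp281, a regulator of the exit from the naive state, by 0.59. Zfp706, another gene of that exit, fell only in Dnd1-KD among the comparisons with control, by 0.32. Zfp207, Zfp143, Zfp217 and Zfp322a were not called against control. Of the 6 pluripotency markers, 1 rose and 3 fell in CDGC1.

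Of the 8 RNA and ribosome factors, 3 rose in Dnd1-KD (20.7% of all units did), and 1 rose and 4 fell in CDGC1 (23.5% and 27.0% of all units). Zfp622, which helps to mature the large ribosomal subunit, rose in Dnd1-KD by 0.48 (33.0 and 35.4 to 45.0 and 51.3 FPKM). Zfp385a and Zfp346, which bind RNA, rose there by 0.62 and 0.35 and fell in CDGC1 by 0.28 and 0.33. Zfp598, the ubiquitin ligase of stalled ribosomes, fell in CDGC1 by 0.45, and Zfp326, a splicing factor, rose there by 0.41. Zfp593 and Zfp106 were not called in any comparison.

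Of 11 developmental factors and cofactors 8 met the rule (Zfp503, Zfp536 and Zfp827 did not). Of the 8, 3 rose in Dnd1-KD (20.7% of all units did), 3 rose and 3 fell in CDGC1 (23.5% and 27.0%), and 1 rose and 2 fell in CDGC6 (8.46% and 10.2%). Zfp703, Zfp608 and Zfp423 are described above. Zfp516, a factor of brown fat, stood at 3.24 and 3.49 FPKM in control, 6.03 and 6.18 in Dnd1-KD, 4.37 and 4.03 in CDGC6 and 1.51 and 1.80 in CDGC1. It rose by 0.70 in Dnd1-KD (limma adjusted p = 0.0042) and fell by 0.72 in CDGC1 (adjusted p = 0.0015). Zfp148 likewise rose by 0.40 and fell by 0.39, Zfp609 rose in CDGC1 by 0.54, and Zfp335 fell in CDGC1 by 0.42 and in CDGC6 by 0.31.

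The KRAB box was not used to choose the members, and the units with and without it differed mostly in CDGC1. Over all units tested 23.5% rose in CDGC1, 27.0% fell and 9.58% fell at least 2-fold. Of 137 units with a KRAB box 12 rose (8.76%) and 54 fell (39.4%) in CDGC1, with a median of -0.31 and 17 at least 2-fold falls. Of 119 units without it 26 rose (21.8%) and 38 fell (31.9%), with a median of -0.12 and 5 such falls. Against CDGC6 the counts in CDGC1 were 10 higher and 46 lower with the box and 22 and 26 without. Of all units 23.0% were higher and 24.1% lower. In Dnd1-KD both classes rose, beside 20.7% up and 15.5% down of all units. They had 31 up and 5 down (median 0.14) with the box and 38 up and 6 down (median 0.21) without. In CDGC6 the counts were 3 up and 4 down with the box and 4 up and 9 down without. Of all units 8.46% rose and 10.2% fell there. The gap in CDGC1 was narrower among single-symbol units, where 10 of 104 KRAB units rose and 35 fell (median -0.20) and 25 of 112 others rose and 36 fell (median -0.15). Genes with both a KRAB box and fingers but another name, 48 units, had 4 up and 21 down in CDGC1 (median -0.24). Falls in CDGC1 were also frequent among the 86 most highly expressed units, with 12 up and 45 down (median -0.36), although KRAB units are on the whole the lower ones. No test of these differences between classes was made.

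**Figure D3:**
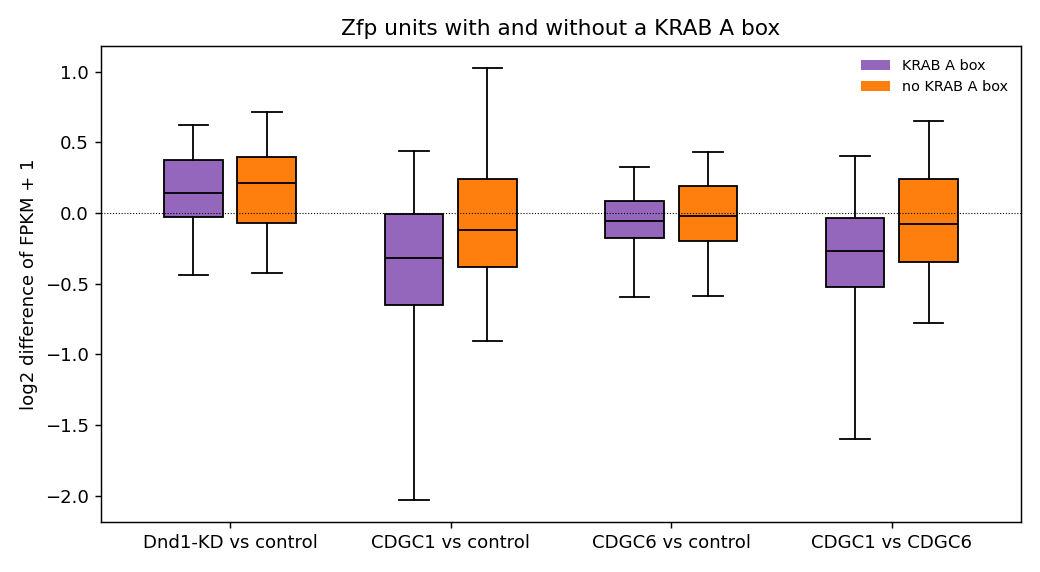
Box plot of the log2 difference of FPKM + 1 (y axis) in the 4 comparisons (x axis) for the 137 Zfp units with a KRAB A box (purple) and the 119 without (orange), with the median (line), quartiles (box) and 5th to 95th percentiles (whiskers). The purple box lies lower in CDGC1 against control (median -0.31 beside -0.12), and both boxes lie mainly above 0 in Dnd1-KD.

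Of 26 genes of KRAB protein partners and other heterochromatin factors, 2 rose and 9 fell in Dnd1-KD (20.7% and 15.5% of all units did). In CDGC6 2 rose and 2 fell (8.46% and 10.2%). In CDGC1 6 rose, near the 23.5% of all units, and 13 fell, beside 27.0%. Trim28 itself varied widely between libraries of a group (811 and 596 FPKM in control, 542 and 416 in Dnd1-KD, 559 and 375 in CDGC1, 471 and 657 in CDGC6) and was not called. Fam208a (TASOR, the scaffold of the HUSH silencing complex) fell in CDGC1 by 1.81 (limma adjusted p = 3.6e-05), to 6.05 ± 0.173 FPKM (SD, n = 2) from 23.6 ± 0.506. Pphln1, another HUSH subunit, rose there by 1.92 (adjusted p = 0.00015), to 58.6 ± 7.73 FPKM from 14.7 ± 1.55. The SETDB1 cofactor gene Atf7ip2 fell by 1.43, the joint unit of Daxx and Platr17 by 0.98, Smarcad1 by 0.97, Resf1 by 0.95 and Setdb1 by 0.49 in CDGC1. In Dnd1-KD the largest fall of the list was that of Uhrf1, which brings the maintenance methyltransferase to DNA (-0.90, limma adjusted p = 0.0018). Atrx fell there by 0.60, Trim24 by 0.58, the unit of Daxx and Platr17 by 0.57 and Dnmt1, that methyltransferase, by 0.56.

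By chromosome, the Zfp median lay above the median of all units on the same chromosome on 17 of 20 chromosomes in Dnd1-KD, and below it on 13 of 20 in CDGC1, 15 in CDGC6 and 16 in CDGC1 against CDGC6. Chromosome 7, with 60 units, had 8 up and 23 down in CDGC1 and 12 up and 3 down in Dnd1-KD. All 927 tested units of chromosome 7 leaned the same way in CDGC1, 18.8% up and 32.1% down. In Dnd1-KD 16.5% of them rose and 17.7% fell. On chromosome 13, 0 of 19 units rose and 11 fell in CDGC1, whereas all 461 units there had 103 up and 130 down. Of those 11 falls, 5 were in the chromosome 13 run described below. Chromosome 2 went against its background: of 14 Zfp units 1 rose and 7 fell in CDGC1 with a median of -0.39, beside 277 up and 235 down of all 942 units and a median of 0.03. Of those 7 falls, 4 were in the chromosome 2 run described below. The 6 units of chromosome 10 had a median of -0.62 beside 0.08 for all. The highest Zfp median in Dnd1-KD, 0.40, was that of the 9 units of chromosome 18, beside 0.07 for all units there. On chromosome 6 the Zfp median was 0.32 with 7 up and 1 down of 12. All 559 units of chromosome 6 had 22.2% up and 14.5% down and a median of 0.05. Of the 7 Zfp rises there, 4 were in the run described below.

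**Figure D4:**
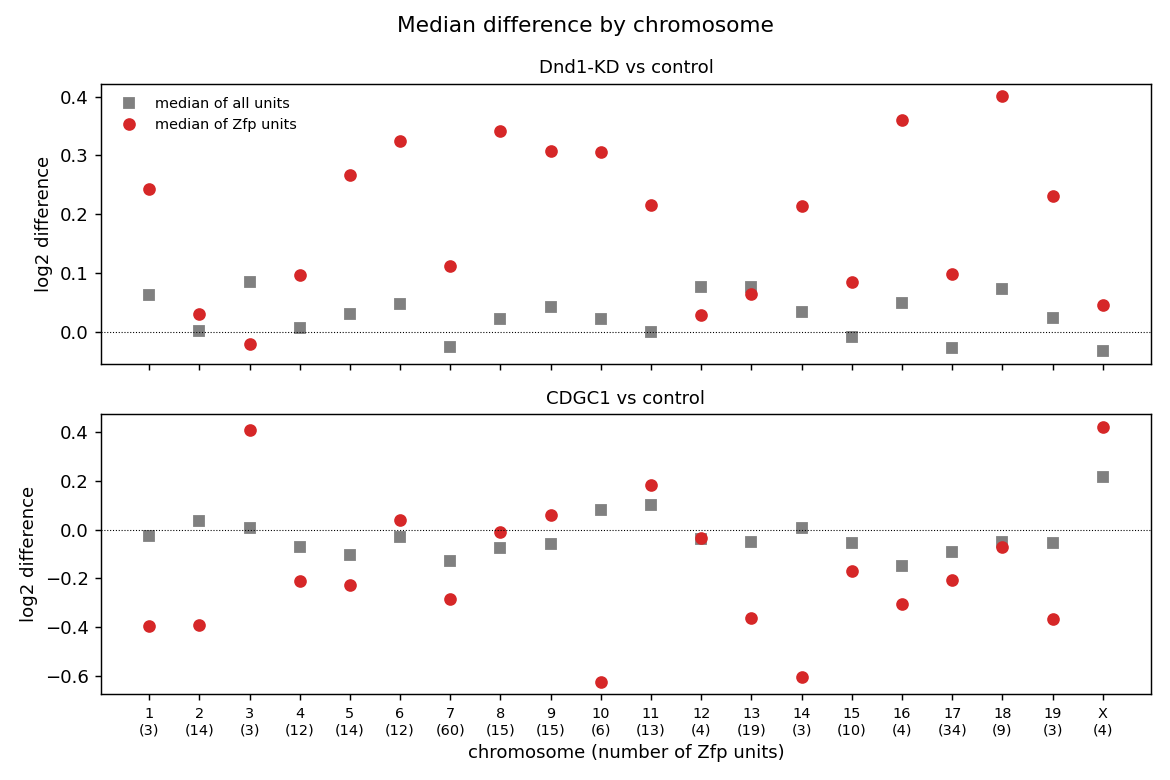
Median log2 difference of FPKM + 1 (y axis) of the Zfp units (red circles) and of all tested units (grey squares) on each chromosome (x axis, with the number of Zfp units in brackets), in Dnd1-KD and in CDGC1 against control. Red lies above grey on 17 of 20 chromosomes in Dnd1-KD and below it on 13 of 20 in CDGC1. The lowest red point in CDGC1 is that of chromosome 10 with 6 units (-0.62).

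A run was defined as 4 or more Zfp units in a row with starts at most 500 kb apart, joint units being placed at their narrowest entry, and it was said to move together where at least 3 in 4 units were called in 1 direction. There were 13 runs with 93 units. In Dnd1-KD 1 run moved together, in CDGC1 2, in CDGC6 0 and in CDGC1 against CDGC6 1. In CDGC1 5 of the 13 runs held calls in both directions, and 10 of the 13 medians were below 0. On chromosome 13 all 8 units of a run lay below 0 (-2.06 to -0.04), with 5 falls and 0 rises, and on chromosome 10 all 4 did (-1.66 to -0.25), with 1 fall. Both missed the rule of 3 in 4 units. In Dnd1-KD 12 of 13 medians were above 0 and 1 run held calls in both directions, and in CDGC6 11 runs held no call at all. Units in runs and outside them fell in CDGC1 at like rates, 36.6% and 35.4%. Over the 113 pairs of neighbouring Zfp units at most 500 kb apart, 56.6% had differences of the same sign in Dnd1-KD, where the members' overall lean towards rises would alone give 57.7%, so neighbours were no more alike than that lean. In CDGC1 the share was 67.3%, beside 56.5% from the lean alone. Pearson's r between neighbours, a description over pairs that share libraries, was lower for the Zfp units than for 10720 neighbour pairs of all units, 0.02 beside 0.03 in Dnd1-KD and 0.10 beside 0.17 in CDGC1.

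**Figure D5:**
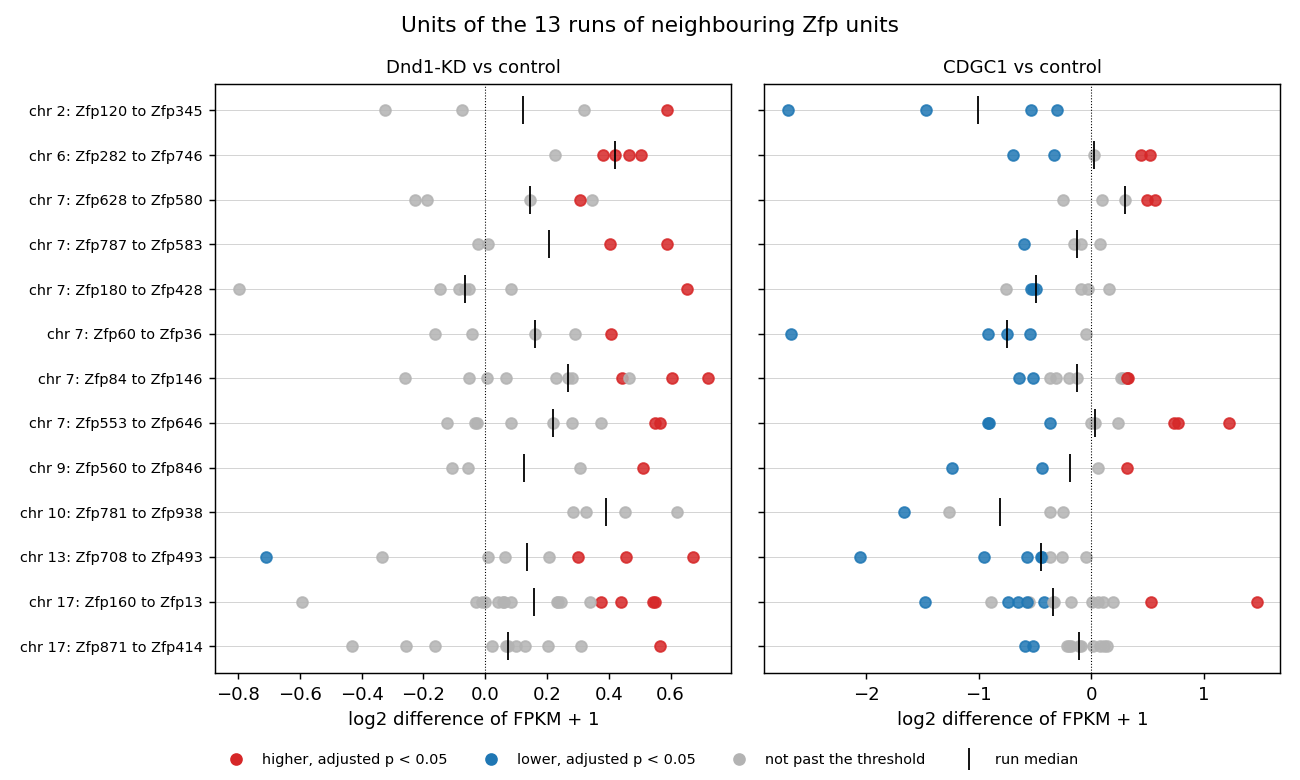
Log2 difference of FPKM + 1 (x axis) of each unit in the 13 runs (y axis, named by chromosome and by the first and last member) in Dnd1-KD (left) and CDGC1 (right) against control, red for a rise, blue for a fall and grey for no call, with the run median as a black bar. All 4 units of the chromosome 2 run are blue in CDGC1, 4 of 5 units of the chromosome 6 run are red in Dnd1-KD, and 4 of 5 units of the run from Zfp60 to Zfp36 are blue in CDGC1.

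The run with a fall called in each of its units in CDGC1 lies on chromosome 2 (chr2:150114407-150485063, mm10, 371 kb) and holds 4 KRAB genes. Zfp120 stood at 3.33 and 3.33 FPKM in control and 2.76 and 2.27 in CDGC1 (-0.30, limma adjusted p = 0.045). The joint unit of Zfp937, Gm14124 and Gm14139 stood at 48.3 and 39.4 FPKM in control, 42.1 and 40.6 in Dnd1-KD, 37.8 and 21.5 in CDGC6 and 6.86 and 5.06 in CDGC1 (-2.69, SE 0.27, adjusted p = 0.00043). Zfp442 fell from 2.61 and 2.35 to 1.43 and 1.36 FPKM (-0.54, adjusted p = 0.0091). Zfp345 fell from 14.1 and 8.78 to 3.67 and 3.13 FPKM (-1.47, adjusted p = 0.0015). Of all units tested 27.0% fell in CDGC1. Both CDGC1 libraries lay below both control libraries in each of the 4 units of the run, a pattern not counted over all units. Against CDGC6 3 of the 4 were lower in CDGC1 (24.1% of all units were), and in Dnd1-KD only Zfp120 was called, upwards by 0.59. The 1 other tested unit in the span, 3300002I08Rik, fell too, from 3.10 and 3.0 to 1.2 and 1.34 FPKM. The call of Zfp120 was lost in 11 of 18 alternatives, among them median-ratio scaling, the replicate block and a fit of the compared groups alone. After quantile normalization, or without control replicate 1, only 2 of the 4 units were called.

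The 150 bases upstream of the annotated start of each gene of the chromosome 2 run are shown because the 4 neighbours can be compared letter by letter (RefSeq, GRCm38.p6, the assembly behind mm10; 5′ to 3′ on the gene's strand). Capitals mark the CCAAT box, searched on both strands as CCAAT or ATTGG, a motif chosen for display after the matches were seen. The windows are chr2:150136679-150136828 (minus) for Zfp120, chr2:150217949-150218098 (plus) for Zfp937, chr2:150451502-150451651 (minus) for Zfp442 and chr2:150485064-150485213 (minus) for Zfp345.
Zfp120: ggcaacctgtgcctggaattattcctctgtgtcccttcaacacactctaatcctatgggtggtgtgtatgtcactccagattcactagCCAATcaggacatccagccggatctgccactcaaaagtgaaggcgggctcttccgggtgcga
Zfp937: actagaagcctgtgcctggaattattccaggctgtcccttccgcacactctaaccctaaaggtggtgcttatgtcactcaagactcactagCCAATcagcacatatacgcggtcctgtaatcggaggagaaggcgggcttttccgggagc
Zfp442: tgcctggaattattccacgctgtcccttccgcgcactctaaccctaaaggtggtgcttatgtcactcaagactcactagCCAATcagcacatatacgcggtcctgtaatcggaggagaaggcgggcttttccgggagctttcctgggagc
Zfp345: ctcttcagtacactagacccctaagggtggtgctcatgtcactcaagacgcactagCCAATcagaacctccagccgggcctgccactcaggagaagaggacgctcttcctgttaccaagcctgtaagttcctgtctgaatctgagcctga
Each window holds 1 CCAAT box. Zfp937 and Zfp442 share an identical stretch of 105 bases in their 250-base windows, and the other pairs share at most 14 to 20 bases in a row.

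The run that rose in Dnd1-KD lies on chromosome 6 (chr6:47877555-48086593, 209 kb). Zfp282 rose from 2.38 and 2.67 to 4.21 and 3.78 FPKM (0.50, limma adjusted p = 0.011), Zfp212 from 8.82 and 9.16 to 11.7 and 12.4 (0.38, adjusted p = 0.03), Zfp777 from 7.4 and 7.70 to 10.6 and 10.2 (0.42, adjusted p = 0.015) and Zfp746 from 5.34 and 4.25 to 6.96 and 6.98 (0.47, adjusted p = 0.03). The joint unit of Zfp783 and Zfp956 stood at 4.32 and 4.11 FPKM in control and 5.13 and 5.07 in Dnd1-KD (0.23, adjusted p = 0.16). Of all units tested 20.7% rose in Dnd1-KD. In each of the 5 units of the run both Dnd1-KD libraries lay above both control libraries, a pattern not counted over all units. The calls are fragile: 0 of 5 were left without either control library, 1 without either Dnd1-KD library and 3 after quantile normalization. In CDGC1 the same run split, with Zfp282 and Zfp746 up by 0.52 and 0.44 and Zfp212 and the joint unit down by 0.33 and 0.69.

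The upstream sequences of 4 genes of this run are shown beside those of chromosome 2, with capitals on the GC box, searched as GGGCGG or CCGCCC. The windows are chr6:47877405-47877554 (plus) for Zfp282, chr6:47920418-47920567 (plus) for Zfp212, chr6:48047795-48047944 (minus) for Zfp777 and chr6:48086594-48086743 (minus) for Zfp746.
Zfp282: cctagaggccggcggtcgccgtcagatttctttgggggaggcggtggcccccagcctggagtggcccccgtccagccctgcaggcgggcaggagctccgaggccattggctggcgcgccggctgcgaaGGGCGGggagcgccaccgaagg
Zfp212: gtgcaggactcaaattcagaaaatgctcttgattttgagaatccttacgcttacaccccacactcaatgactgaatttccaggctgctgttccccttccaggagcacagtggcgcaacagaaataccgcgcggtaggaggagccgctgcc
Zfp777: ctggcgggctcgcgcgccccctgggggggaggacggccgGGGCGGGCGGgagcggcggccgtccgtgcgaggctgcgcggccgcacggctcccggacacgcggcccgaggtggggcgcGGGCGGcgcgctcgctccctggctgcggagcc
Zfp746: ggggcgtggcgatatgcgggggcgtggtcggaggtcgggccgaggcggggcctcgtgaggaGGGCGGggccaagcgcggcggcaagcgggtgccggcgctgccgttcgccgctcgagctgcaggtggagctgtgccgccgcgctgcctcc
Zfp777 holds 3 GC boxes in this window, Zfp282 and Zfp746 1 each and Zfp212 0. Over 250 bases upstream the CpG count was 18 in Zfp282, 12 in Zfp212, 42 in Zfp777 and 33 in Zfp746, with 23 in Zfp783 and 11 in Zfp956, whose windows are not shown, beside 3 to 10 in the chromosome 2 run. Zfp282 and Zfp956 also hold a CCAAT box. The longest stretches that these 4 genes shared in their 250-base windows were 7 to 9 bases.

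The other run that fell in CDGC1 lies on chromosome 7 (chr7:27765673-28379228, 614 kb) and ends with Zfp36. This span begins at the narrowest entry of the joint unit of Zfp60, so the upstream window of Zfp60 given below lies outside it. The joint unit of Zfp60, C030039L03Rik and Gm10046 fell from 8.93 and 9.40 to 5.13 and 4.99 FPKM (-0.75), that of Zfp59, Zfp607 and Zfp626 from 15.2 and 14.9 to 7.58 and 7.37 (-0.92), and Zfp850 from 8.38 and 8.13 to 5.90 and 4.85 (-0.54). Zfp36, described above, fell by 2.67. The joint unit of Zfp780b and 1700049G17Rik did not move (3.23 and 2.95 FPKM in control, 3.0 and 2.90 in CDGC1; -0.05, limma adjusted p = 0.71). In every alternative that kept all 5 units, 4 of them were called lower. Of the 10 other tested units in the span 3 rose (Dll3, Plekhg2 and Timm50) and 1 fell (Eid2), beside 23.5% up and 27.0% down of all units.

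Upstream windows of 4 genes of this run follow, from 2 KRAB units that fell, the 1 that was not called and the CCCH gene, with capitals on the ETS core, searched as CCGGAAG or CTTCCGG. They are chr7:27731259-27731408 (plus) for Zfp60, chr7:27979158-27979307 (minus) for Zfp780b, chr7:28014116-28014265 (minus) for Zfp850 and chr7:28379229-28379378 (minus) for Zfp36.
Zfp60: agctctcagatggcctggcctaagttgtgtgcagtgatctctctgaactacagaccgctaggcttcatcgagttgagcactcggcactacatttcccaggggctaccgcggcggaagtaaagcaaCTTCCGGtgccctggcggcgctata
Zfp780b: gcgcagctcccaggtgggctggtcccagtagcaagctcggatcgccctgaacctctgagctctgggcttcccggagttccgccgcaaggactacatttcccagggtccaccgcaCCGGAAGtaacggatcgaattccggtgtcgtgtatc
Zfp850: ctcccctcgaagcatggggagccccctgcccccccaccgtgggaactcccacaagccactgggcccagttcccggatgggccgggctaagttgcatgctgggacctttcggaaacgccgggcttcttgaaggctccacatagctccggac
Zfp36: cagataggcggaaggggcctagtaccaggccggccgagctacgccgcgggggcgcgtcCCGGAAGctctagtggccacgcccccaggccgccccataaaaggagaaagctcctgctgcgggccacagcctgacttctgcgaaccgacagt
Zfp60, Zfp780b and Zfp36 hold the ETS core once each and Zfp850 0 times, and of the windows not shown Zfp59 holds it once and Zfp626 0 times. Among the 233 members with an upstream window of 250 bases, 16.7% held that core, beside 7.05% of 27018 windows of all genes. The CCAAT box stood in 47.2% of the members (54.3% with a KRAB box, 37.0% without) and 34.5% of all genes, and the GC box in 44.2% of the members (30.7% and 64.1%) and 32.9% of all genes. TATAAA was less frequent in the members, 5.58% beside 13%. The median CpG count was 11 in the members (8 with a KRAB box, 14.5 without) and 6 in all genes. These shares compare unlike sets. The members were chosen for expression, and each was given the window nearest the start of its deposited locus. For all genes the first listed window was taken, whether or not the gene was expressed here. A match is a description of the letters and not a bound site.

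The 3 deepest falls in CDGC1 were in joint units whose members could not be measured apart. On chromosome 4 the unit of Zfp600 and 7 other symbols stood at 459 and 448 FPKM in control, 331 and 335 in Dnd1-KD, 366 and 360 in CDGC6 and 11.6 and 10.0 in CDGC1. The difference was -5.27 (SE 0.07, limma adjusted p = 6.1e-07) in CDGC1, and smaller falls were called in Dnd1-KD (-0.44) and CDGC6 (-0.32). Further along the chromosome the unit of Zfp534, Gm13157 and 2610305D13Rik stood at 271 and 251 FPKM in control, 208 and 198 in Dnd1-KD, 255 and 231 in CDGC6 and 15.1 and 9.74 in CDGC1 (-4.32). On chromosome 7 the unit of Zfp936 and EU599041 stood at 73.8 and 62.6 FPKM in control, 42.0 and 33.7 in Dnd1-KD, 52.4 and 37.5 in CDGC6 and 0.589 and 0.875 in CDGC1 (-5.32, SE 0.20, adjusted p = 1.2e-05). In each of the 3 the CDGC1 libraries lay far below the other 6.

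In CDGC1 these symbols had entries of their own, with Zfp600 at 0.741 and 0.650 FPKM, Zfp534 at 1.04 and 0.672 and Zfp936 at 0.290 and 0.239. In the other groups the named Zfp gene was joined with its neighbours, so its own level there, and its own share of the fall, were not measured. The way of measuring these 3 units thus changed together with the group, and its part in their differences was not tested. Over the members, 21 of 40 joint units fell in CDGC1 and 3 rose (median -0.43, 8 at least 2-fold falls), beside 71 down and 35 up of 217 single-symbol units (median -0.18, 14 such falls). Of all units tested 27.0% fell, 23.5% rose and 9.58% fell at least 2-fold in CDGC1. Within the 40 joint units, entries of several symbols also had wider errors than entries of 1 symbol. The tables' confidence interval began at 0 in 37 of 158 of the former and in 33 of 476 of the latter. No such count was made for the 217 single-symbol units. The direction of the members in CDGC1 was therefore the same without the joint units, at a smaller size.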

How the data were processed

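Total RNA of 8 libraries in 4 groups of 2 was sequenced (TruSeq RNA v2 kit, per the labels' protocols). The authors deposited 1 gene table per library with FPKM values and confidence limits, per the file headers. TopHat2, Bowtie, Cufflinks, Cuffdiff and mm10 are named in the submitters' processing notes, and their versions and settings are not given in the sources used here. The tables hold no counts, so no count test was run.

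Entries without a gene name, small RNA symbols and 24 names turned into dates were left out, and FPKM was summed per unit of symbols joined in any table. Units that reached 1 FPKM in 2 or more libraries were tested with limma 3.58.1 (R 4.3.3) on log2(FPKM + 1): group means over all 8 libraries, eBayes with trend, Benjamini-Hochberg adjustment over all units, threshold 0.05. The 3 comparisons with control share its libraries. The fit was tested on simulated data with known changes. Python 3.11.15, pandas 2.3.3, numpy 2.4.6 and matplotlib 3.10.9 were used for the rest.

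The members, lists and role groups were chosen with earlier results of these data known, so no count over them is independent support. Named units were, in each comparison, the 5 largest rises and falls among called units whose groups did not overlap and whose higher group averaged at least 2 FPKM, with the units of runs that moved together, the role lists, and units called in opposite directions in CDGC1 and CDGC6. KRAB boxes were found in proteins translated from GENCODE M21, with a 28-residue weight matrix and a threshold of 5 bits. The matrix was built from 103 genes whose proteins matched patterns of conserved KRAB residues, and 17 genes scored within 5 bits of the threshold. RefSeq proteins, planned for this step, were not used here. Upstream windows came from RefSeq (GRCm38.p6), matched by symbol for 233 of 283 members.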

Additional observations from a re-analysis of the deposited data

Results flagged for a closer look

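Zfp229 is the 1 member whose differences from control were called in opposite directions in the testis-derived lines, lower in CDGC1 (-0.65, limma adjusted p = 0.0012) and higher in CDGC6 (0.36, adjusted p = 0.035). Tested directly, CDGC1 lay below CDGC6 by 1.01 on the log2(FPKM + 1) scale (-1.01, SE 0.08, adjusted p = 0.00027), with 2.49 and 2.36 FPKM against 5.98 and 5.83. The rise in CDGC6 lost its call in 9 of 18 alternatives, whereas the difference between the lines kept it in all 18.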

How the results depend on the processing

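Leaving out 1 library at a time gave 11 to 96 called Zfp units in Dnd1-KD (80 with all libraries), 78 to 142 in CDGC1 (130), 4 to 27 in CDGC6 (20) and 91 to 110 in CDGC1 against CDGC6 (104). The lone library of the shortened group is then assumed to vary like the others. The matching counts of runs that moved together were 0 to 1 (1), 1 to 3 (2), 0 to 0 (0) and 0 to 4 (1). With only the compared groups in the fit, 2 runs moved together in Dnd1-KD, and CDGC1 against CDGC6 had 69 called units and 0 runs. After quantile normalization the runs were 0 in Dnd1-KD, 1 in CDGC1 and 0 in CDGC1 against CDGC6. With units of a single symbol alone they were 0 in CDGC1 and 0 in CDGC1 against CDGC6, with a filter of 5 FPKM 1 in CDGC1, and with neighbours up to 1 Mb apart 2 in CDGC1 against CDGC6. The cause of these shifts was not tested. The fit with the replicate number as a block called 71, 124, 12 and 104 units. The deviations of same-numbered libraries had correlations of -0.055 to 0.12 between groups, the highest between control and Dnd1-KD. With 2 libraries in each group this check cannot show whether the numbers pair the libraries. Of 134 calls of named units 68 held in each of the 18 alternatives that gave a value, 66 were lost in at least 1 and 0 changed direction, most often without control replicate 1 (56 lost) or 2 (47 lost). Depth is unknown, so no limit of detection can be given, and differences of members near 2 FPKM are compressed by the pseudocount of 1.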
